A study of Homo sapiens with 12 samples.

Results

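The genes described here encode vasoactive peptides and the enzyme that activates some of them: EDN1 (endothelin-1), EDN2 (endothelin-2), APLN (apelin), ADM (adrenomedullin) and ECE1 (endothelin-converting enzyme 1). They were taken by symbol from the tables of raw counts and of FPKM (fragments normalized to gene length and library size). They are 5 of the 17085 genes listed, and all 5 passed the filter on low counts that kept 12841 genes. The set was chosen by function and by its measured log2 fold changes between the treatment groups, which were already known, so their differences between treatments are given as a description, with standard errors and library values but without tests.

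RNA was sequenced from 786-O cells, a human line derived from clear cell renal carcinoma, which is known to lack a working VHL protein and to carry active HIF2α. The labels give the genotype as WT, and all groups came from this 1 line. The DMSO group received the vehicle, the everolimus group 5 µM everolimus (an inhibitor of mTOR complex 1), the SGI-1027 group 1.5 µM SGI-1027 (which inhibits DNA methyltransferases) and the combination group both drugs at those doses, each for 24 h and in 3 libraries. The shared treatment protocol states 10 µM for everolimus alone, while the study's sequencing methods give 5 µM, as the labels do. The dose of that group is therefore uncertain. This uncertainty extends to every comparison that uses the group, including the combination against everolimus alone and all interactions of the drugs. The labels do not tell whether replicates were separate cultures, and standard errors and p-values then measure only the spread between these libraries, which may be technical.

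Endothelins are made as precursors. Convertases such as furin release big endothelin, ECE1 cuts it to the active peptide, and the peptide acts through the receptors EDNRA and EDNRB, best known for constriction of vessels and for salt handling in the kidney. Apelin acts through APLNR, and adrenomedullin, after amidation by PAM, acts through CALCRL paired with RAMP2 or RAMP3. Both relax vessels and promote their growth, and ADM and EDN1 are known as hypoxia-responsive genes.

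Library totals ran from 37046231 to 41516976 counts. Replicates were compared by a chi-square statistic per gene, for which 1 would be sampling noise alone. It was 3.04 to 5.46 for most replicate pairs, but 10.1 and 12.9 for the pairs with DMSO replicate 1 and 16.4 and 16.1 for those with SGI-1027 replicate 3, so these 2 libraries stood apart. Levels below are CPM (read counts scaled to library size) after TMM normalization when 1 gene is compared between groups, and FPKM when genes are compared with each other. Since RNA came from whole cultures, fewer cells of a kind and less RNA per cell cannot be told apart. The study reports that both drugs together, but neither alone, raised lactate dehydrogenase release within the treatment time used here. Its authors read this as early damage to the cell membrane. Levels and interactions that involve the combination group may therefore reflect dying or surviving cells as well as regulation, which was not tested.

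EDN2 had the deepest decrease. Its level was 26.3, 22.0 and 22.5 CPM in the DMSO libraries, 9.92, 9.45 and 7.81 CPM with everolimus, 7.41, 8.07 and 5.93 CPM with SGI-1027, and 0.938, 0.727 and 1.05 CPM in the combination group. Every DMSO library lay above every treated library and every combination library lay below all others, while the everolimus and SGI-1027 libraries overlapped. The combination values rest on 36, 29 and 40 reads. The group means were 23.6 ± 2.32 CPM with DMSO, 9.06 ± 1.11 CPM with everolimus, 7.14 ± 1.10 CPM under SGI-1027 and 0.906 ± 0.164 CPM in the combination group (SD, n = 3 each).

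On the log2 scale, EDN2 fell by 1.38 (SE 0.11) with everolimus, 2.60-fold, and by 1.73 (SE 0.12) with SGI-1027, 3.31-fold. In the combination group it fell by 4.70 (SE 0.16), or 26.03-fold. Relative to everolimus alone the difference of the combination was −3.32 (SE 0.17) and relative to SGI-1027 alone −2.98 (SE 0.17), so each drug went with a larger decrease when the other was present. The difference between the combination and the sum of the single-drug log2 changes, here called the interaction, was −1.60 (SE 0.21). Among the 11465 genes averaging 50 counts or more, the log2 change of EDN2 ranked 1 from the lowest in the combination against DMSO and against either drug alone, 5 from the lowest with SGI-1027 and 14 from the lowest with everolimus. By FPKM it lay above 76.1% of tested genes in the DMSO group and above 15.9% in the combination group.

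EDN1, the paralogous ligand, went the other way. It was at 5.80, 5.27 and 6.62 CPM in the DMSO libraries, at 20.6, 20.1 and 19.8 CPM with everolimus, at 21.2, 22.5 and 23.8 CPM with SGI-1027 and at 18.6, 15.7 and 16.2 CPM with the combination. All treated libraries lay above all DMSO libraries, and no neighbouring groups overlapped in the order DMSO, combination, everolimus, SGI-1027. The means were 5.90 ± 0.682, 16.8 ± 1.55, 20.2 ± 0.422 and 22.5 ± 1.30 CPM in that order (SD, n = 3 each).

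The log2 difference of EDN1 from DMSO was 1.78 (SE 0.09) with everolimus, 1.93 (SE 0.09) under SGI-1027 and 1.51 (SE 0.09) in the combination group, which are 3.42-fold, 3.82-fold and 2.85-fold. The combined treatment therefore left EDN1 above DMSO but below either drug alone, by −0.26 (SE 0.08) relative to everolimus and −0.42 (SE 0.08) relative to SGI-1027. Its interaction was −2.20 (SE 0.12), ranked 13 from the lowest of the 11465 genes.

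**Figure D1:**
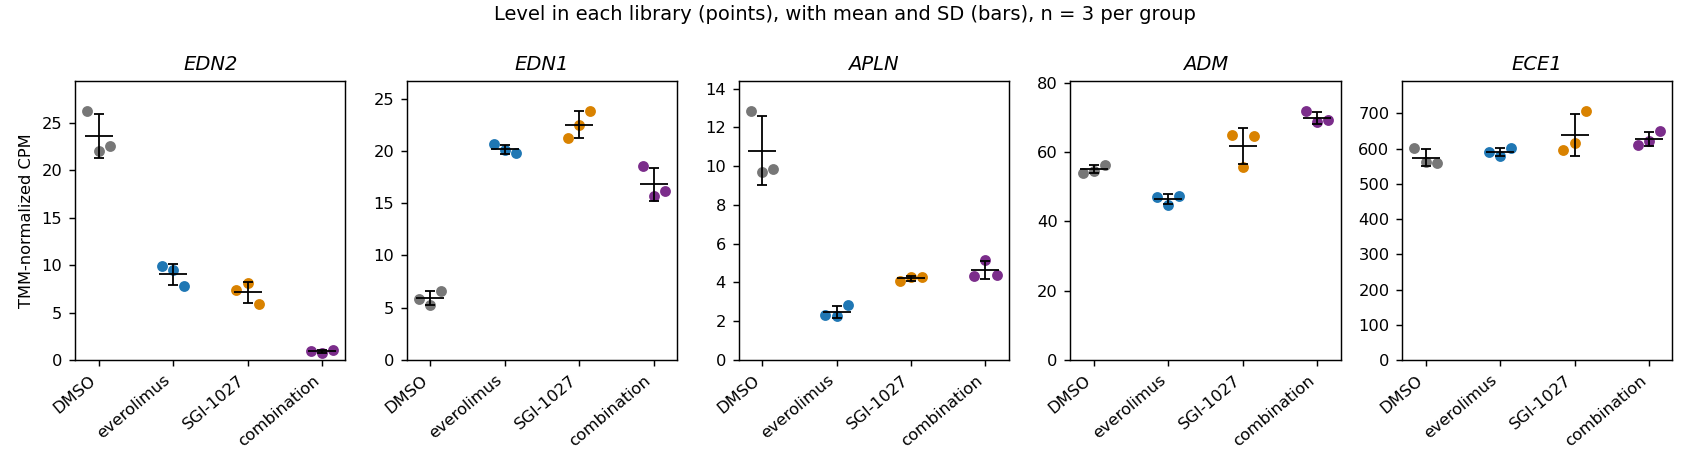
Level of each peptide gene and of ECE1 in the 12 libraries, as TMM-normalized CPM from 0 on a separate vertical axis for each gene, by treatment group. Points are libraries and bars are the mean and SD of 3 libraries. EDN2 falls to 0.906 CPM in the combination group, EDN1 is higher in all treated groups, APLN is lowest with everolimus, and ECE1 stays between 558 and 707 CPM.

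Because the ligands moved apart, their balance changed. EDN1 made up 9.45%, 10.2% and 12.2% of the summed EDN1 and EDN2 FPKM in the DMSO libraries, 49.6%, 50.2% and 54.5% with everolimus, 57.5%, 56.8% and 65.5% with SGI-1027, and 90.4%, 91.1% and 87.9% with the combination. The ranges of the 4 groups did not overlap, and the scaling of the libraries cancels out of this share. The predominant endothelin transcript was thus EDN2 in the vehicle cells and EDN1 in the combination cells, with EDN1 and EDN2 near parity under everolimus.

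The summed endothelin FPKM was 21.0 ± 2.05 in vehicle cells, 14.8 ± 1.03 after everolimus, 14.1 ± 0.659 after SGI-1027 and 7.13 ± 0.638 after both drugs (SD, n = 3 each). The rise of EDN1 was smaller in FPKM than the loss of EDN2, so the sum was lowest in the combination group. Transcript shares say nothing about the amounts of peptide, which were not measured.

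**Figure D2:**
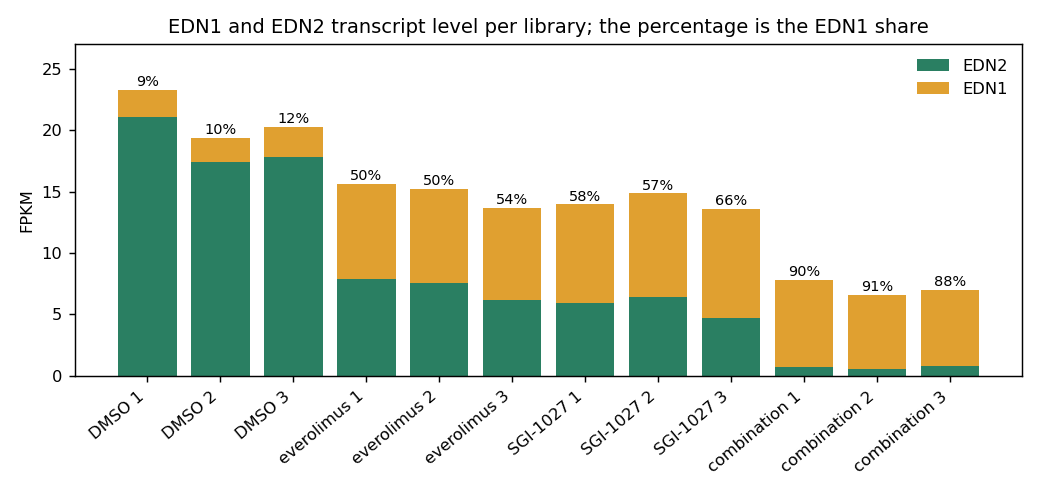
FPKM of EDN2 and EDN1 stacked for each of the 12 libraries, with the percentage of the sum that was EDN1 above each bar. The EDN1 share runs from 9.45% to 12.2% with DMSO and from 87.9% to 91.1% with the combination, while the summed level is lowest in the combination group.

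ECE1, the enzyme that would act on both precursors, was the most abundant of the 5 genes per length, with a mean of 83.1 FPKM in the DMSO group, and changed least. Its libraries were at 603, 562 and 558 CPM with DMSO, 591, 578 and 603 CPM with everolimus, 597, 615 and 707 CPM with SGI-1027 and 609.7, 622 and 649.6 CPM with the combination. The everolimus and SGI-1027 libraries overlapped those of DMSO, and the combination libraries lay just above them. The highest value belonged to SGI-1027 replicate 3, a library that stood apart.

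The log2 difference of ECE1 from DMSO was 0.04 (SE 0.05) with everolimus, 0.16 (SE 0.05) under SGI-1027 and 0.13 (SE 0.05) in the combination group. With each library left out in turn, the everolimus value ran from 0.02 (without DMSO replicate 3) to 0.07 (without DMSO replicate 1), and the SGI-1027 value was 0.08 without SGI-1027 replicate 3. The difference between the combination and SGI-1027 was −0.03 (SE 0.05), and ran from −0.08 without SGI-1027 replicate 1 to 0.05 without SGI-1027 replicate 3. The ratio of ECE1 to summed endothelin FPKM was 3.97 ± 0.197 with DMSO, 5.80 ± 0.510 with everolimus, 6.56 ± 0.807 under SGI-1027 and 12.97 ± 1.36 in the combination group (SD, n = 3 each), which follows the fall of the ligands at a nearly level enzyme.

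APLN was lower in every treated group, and lowest with everolimus alone. It was at 12.9, 9.69 and 9.87 CPM in the DMSO libraries and at 2.32, 2.25 and 2.82 CPM with everolimus. With SGI-1027 it was at 4.06, 4.31 and 4.28 CPM, and with the combination at 4.35, 5.17 and 4.36 CPM. No 2 groups overlapped, but the gap between the SGI-1027 and combination means, 4.22 ± 0.137 and 4.63 ± 0.467 CPM (SD, n = 3 each), was smaller than the larger of their SDs.

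APLN fell by 2.13 (SE 0.14) on the log2 scale with everolimus, 4.38-fold, ranking 2 from the lowest of the 11465 genes. It fell by 1.36 (SE 0.13) with SGI-1027 and by 1.22 (SE 0.13) with the combination, 2.56-fold and 2.33-fold. The combination was thus higher than everolimus alone, by 0.91 (SE 0.15), and its difference from SGI-1027 alone was 0.14 (SE 0.14), which was 0.05 without combination replicate 2. The interaction was 2.27 (SE 0.19), ranked 3 from the highest. DMSO replicate 1, which stood apart, had the highest APLN level, and without it the everolimus value was −1.99 and the combination value −1.07.

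ADM, the most abundant of the peptide precursors at a mean of 36.7 FPKM in the DMSO group, moved over a narrow range. It was at 54.1, 54.6 and 56.3 CPM with DMSO, 47.0, 44.9 and 47.5 CPM with everolimus, 64.8, 55.8 and 64.5 CPM with SGI-1027 and 71.9, 68.6 and 69.4 CPM with the combination. Everolimus libraries lay below all others and combination libraries above all others, while SGI-1027 replicate 2 lay within the DMSO range. The log2 difference from DMSO was −0.24 (SE 0.06) with everolimus, 0.17 (SE 0.05) under SGI-1027 and 0.35 (SE 0.05) in the combination group.

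Between the combination and everolimus alone, ADM differed by 0.59 (SE 0.05), and between the combination and SGI-1027 alone by 0.18 (SE 0.05). Without SGI-1027 replicate 2 the latter value was 0.11. The interaction of ADM was 0.43 (SE 0.08).

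**Figure D3:**
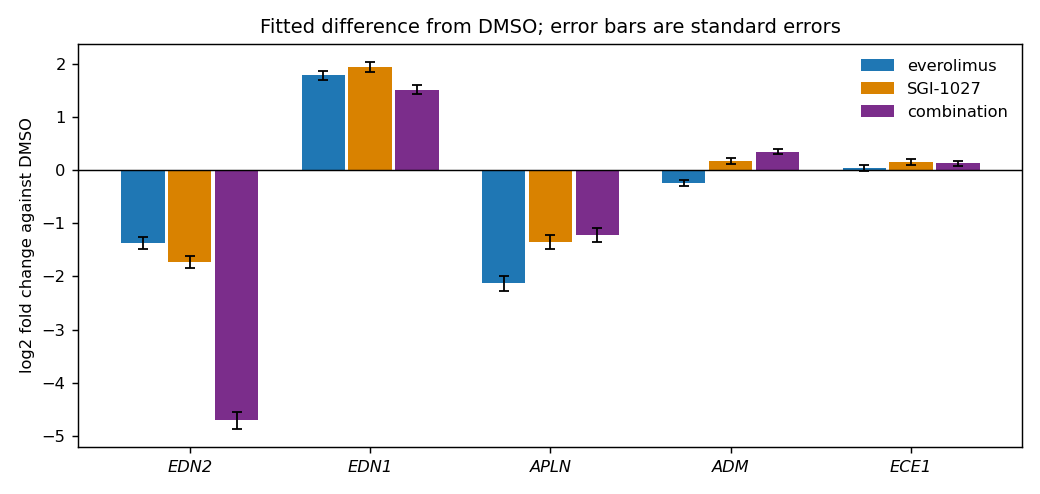
Log2 fold change of each gene against DMSO in the everolimus, SGI-1027 and combination groups, from the edgeR fit. Bars are fitted values and error bars their standard errors; EDN2 reaches −4.70 with the combination, EDN1 lies between 1.51 and 1.93, APLN between −2.13 and −1.22, and ADM and ECE1 stay within 0.35 of 0.

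Counted together, treated and DMSO libraries did not overlap for 4 of the 5 genes with everolimus (EDN1 higher, EDN2, APLN and ADM lower), beside 62.9% of all tested genes. With SGI-1027 the number was 3 of 5 (EDN1 higher, EDN2 and APLN lower), beside 63.2%. With the combination it was 5 of 5 (EDN1, ADM and ECE1 higher, EDN2 and APLN lower), beside 69.2%. The combination libraries did not overlap those of everolimus for 5 of 5 genes, beside 54.2%, nor those of SGI-1027 for 4 of 5, all but ECE1, beside 34.6%. EDN1, EDN2 and APLN changed by at least 1 on the log2 scale in each comparison with DMSO. The cut-off of the study adds an unadjusted p under 0.05 to that minimum, and was not applied to these genes. Of all tested genes, 4.79%, 7.33% and 9.96% met it with everolimus, SGI-1027 and the combination. Since the genes were chosen for their responses, nothing is read from these counts.

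For 3 of the 5 genes the direction seen with everolimus was not the same when SGI-1027 was present, and for 2 of them the same held for SGI-1027. Everolimus went with higher EDN1, lower APLN and lower ADM in every library when given alone, and with lower EDN1, higher APLN and higher ADM in every library when given on top of SGI-1027, where the APLN difference was no larger than its SE. SGI-1027 in turn went with higher EDN1 and lower APLN alone, and with lower EDN1 and higher APLN on top of everolimus. Among all tested genes, 10.4% turned in this way for everolimus and 9.45% for SGI-1027. EDN2 fell in all 4 of these steps, and these comparisons share their control and combination libraries.

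**Figure D4:**
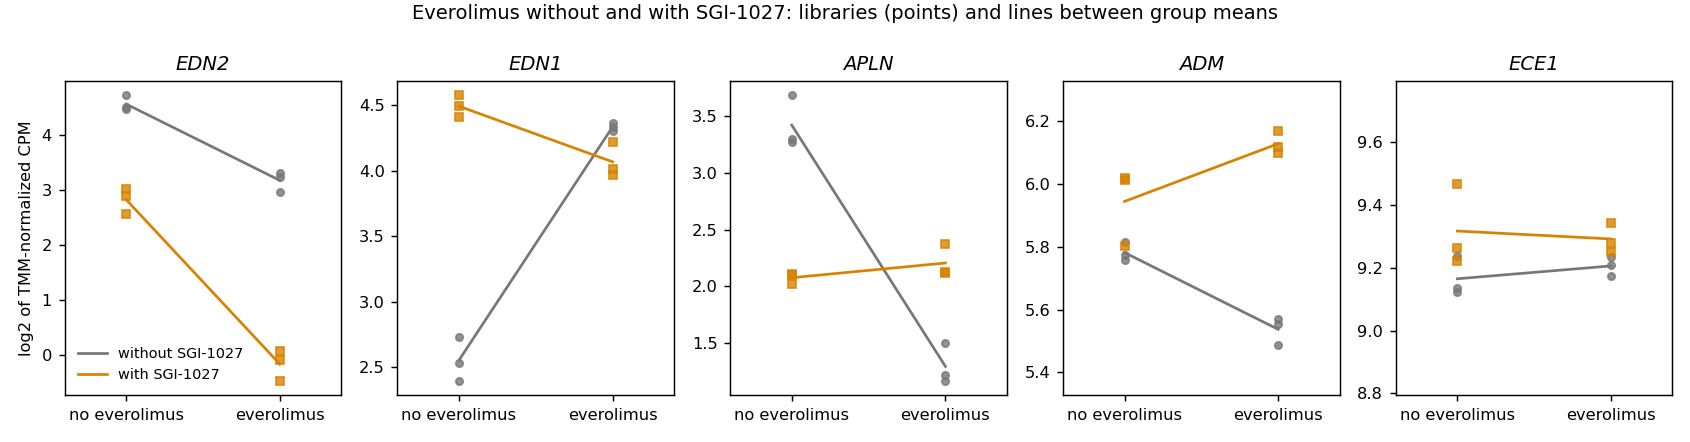
Log2 of TMM-normalized CPM without and with everolimus, in cells without SGI-1027 (grey circles) and with it (orange squares), where points are libraries and lines join group means. The vertical axes differ between genes and do not start at 0; the lines for EDN1, APLN and ADM slope in opposite directions, and both EDN2 lines fall.

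The promoters of EDN1, EDN2 and APLN, the genes with the largest changes, are shown so that the endothelin genes that moved apart can be compared. They are the 250 bases before the transcription start in RefSeq on GRCh38.p14, read 5′ to 3′ in the direction of transcription, at chr6:12290111-12290360 for EDN1 (plus strand), chr1:41484684-41484933 for EDN2 (minus strand) and chrX:129654957-129655206 for APLN (minus strand). Capitals mark matches to the HIF core ACGTG or GCGTG, the AP-1 motif TGANTCA or the GATA motif AGATAA, each on either strand, or to the TATA box TATAAA in the direction of transcription. RefSeq lists 3 starts for EDN1, and that with the most annotated transcripts near it is shown.
EDN1: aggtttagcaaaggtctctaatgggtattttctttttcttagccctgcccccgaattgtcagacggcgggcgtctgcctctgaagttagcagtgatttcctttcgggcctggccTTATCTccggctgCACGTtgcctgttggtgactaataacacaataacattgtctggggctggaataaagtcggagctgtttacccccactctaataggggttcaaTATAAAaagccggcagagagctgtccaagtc
EDN2: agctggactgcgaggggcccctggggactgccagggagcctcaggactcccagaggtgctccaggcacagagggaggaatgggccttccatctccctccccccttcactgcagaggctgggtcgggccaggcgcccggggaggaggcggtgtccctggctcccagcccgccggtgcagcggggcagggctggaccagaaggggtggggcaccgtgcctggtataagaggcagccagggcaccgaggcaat
APLN: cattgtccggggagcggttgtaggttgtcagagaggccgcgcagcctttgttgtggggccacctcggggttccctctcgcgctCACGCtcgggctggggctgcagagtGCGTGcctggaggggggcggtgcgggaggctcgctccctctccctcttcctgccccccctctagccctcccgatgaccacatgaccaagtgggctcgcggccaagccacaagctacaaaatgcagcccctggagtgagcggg
EDN1 held AGATAA on the opposite strand at 136 to 131 bases before the start, ACGTG on the opposite strand at 123 to 119, and TATAAA at 31 to 26. APLN held GCGTG at 167 to 163 on the opposite strand and at 142 to 138 on the transcribed one. EDN2 held no exact match to any of the motifs. No matches overlapped. Of 34943 RefSeq promoters of the same length, 18.5% held ACGTG, 32.2% GCGTG, 6.59% TGANTCA, 9.19% AGATAA and 6.82% TATAAA. CpG pairs, the bases that DNA methyltransferases modify, numbered 9 in EDN1, 10 in EDN2 and 17 in APLN, beside a median of 11. Only exact matches were marked. The EDN1 promoter also holds tgactaa, which is close to TGANTCA. Near the start, EDN2 holds tataag and APLN tacaaa, both close to TATAAA, so a lack of marks does not mean a lack of sites. DNA methylation was not measured here, and a match is not evidence of binding.

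The genes most like each of the 5 were found by the root mean square difference over the log2 changes against DMSO of the 3 treatments, among 11465 genes. APLN was nearest to MFSD2A, a lipid transporter (0.297), and LYAR, a nucleolar protein (0.377). ADM was nearest to SH3RF1 (0.0174) and SPRED2 (0.0227), and ECE1 to SOX12 (0.00476) and BASP1 (0.00719). EDN2 had no near neighbour, with CNN1 (0.984) and DHRS9 (1.10) the closest. EDN1 was nearest to CD99-2 (0.0993) and SIK1 (0.135), whose counts are uncertain because each gene has a near-identical copy.

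Transcripts of the receptors were at or near 0. Over the 12 libraries together, EDNRA had 1 count, EDNRB 8, APLNR 3, CALCRL 53, RAMP1 6 and RAMP2 12, and CALCRL had the highest value in any library, 8 counts. A count of 0 in a library allows up to 3 counts, or 0.0723 to 0.081 CPM, as far as counting error goes. The other apelin receptor ligand, APELA, had 17 counts in all, and none of these genes passed the filter. EDN3, ECE2 and RAMP3 have no row under these symbols in the deposited counts, so their levels are not known.

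Genes around the peptides were tested from 7 lists of 90 genes, of which 77 were in the tables and 47 passed the filter. By the quasi-likelihood test of edgeR, with p-values adjusted over all tested genes (Benjamini-Hochberg), 19 were upregulated and 13 downregulated with everolimus (background 27.2% and 29.2% of all genes). With SGI-1027 the numbers were 19 and 13 (32% and 30.6%), and with the combination 22 and 16 (32.8% and 33.4%). The median log2 change of the 47 genes was 0.08 with everolimus, 0.08 under SGI-1027 and −0.01 in the combination group, beside 0.00, 0.02 and 0.01 over all genes. The same shares over all genes stand beside the counts of single lists below. Those lists are small, and nothing is read from their counts.

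Among genes that remove or bind the peptides, MME (neprilysin, a protease that degrades endothelins and other vasoactive peptides) rose with each drug. Its means were 12.02 ± 0.474 CPM with DMSO, 16.3 ± 1.18 with everolimus, 20.8 ± 0.583 under SGI-1027 and 36.3 ± 1.09 in the combination group (SD, n = 3 each). The log2 changes were 0.44, 0.79 and 1.59 (edgeR adjusted p = 2.22e-05, 1.1e-08 and 3.6e-13). ACKR3, a scavenging receptor that binds adrenomedullin and some chemokines, had log2 changes of 0.45, 1.11 and 1.66 in the same order (edgeR adjusted p = 0.000622, 9.73e-09 and 2.13e-11). ADM2, a ligand related to ADM, rose by 1.20 with SGI-1027 and 1.55 with the combination (edgeR adjusted p = 7.22e-06 and 1.99e-07). With everolimus its log2 change was 0.30 (edgeR adjusted p = 0.17), and it ran from 0.13 without everolimus replicate 2 (adjusted p = 0.585) to 0.50 without DMSO replicate 1 (adjusted p = 0.0261).

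In the adrenomedullin and calcitonin list, with 4 tested genes, 1 rose and 1 fell with everolimus, and 3 rose and 1 fell with SGI-1027. With the combination 2 rose and 2 fell, all beside the shares over all genes given above. The endothelin list had 2 tested genes, MME and the low-count protease KEL, and both were called higher with the combination. For KEL, at a mean of 6.33 counts, the combination and DMSO libraries overlapped.

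Of 7 tested genes that process precursors, 4 rose and 1 fell with each treatment, beside the shares over all genes given above. The 1 that fell was PCSK5, a convertase. It fell by 0.66, 0.85 and 1.27 with everolimus, SGI-1027 and the combination. PCSK5 is named because it fell, so it is given without p-values. PAM, which amidates adrenomedullin, rose by 0.36, 0.33 and 0.26 with everolimus, SGI-1027 and the combination (edgeR adjusted p = 2.14e-07, 3.95e-07 and 6.76e-06), from a DMSO mean of 252.5 CPM. PCSK4, a convertase at low counts, rose by 1.81, 2.35 and 2.30 (edgeR adjusted p = 0.00075, 3.1e-05 and 3.44e-05). FURIN differed by 0.15, 0.10 and 0.19 (edgeR adjusted p = 0.0326, 0.128 and 0.00623), and its everolimus value missed the threshold when DMSO replicate 2 or 3 or any 1 of the everolimus libraries was left out (adjusted p = 0.0565 to 0.168). Its SGI-1027 value ran from 0.04 without SGI-1027 replicate 3 (adjusted p = 0.513) to 0.17 without DMSO replicate 1 (adjusted p = 0.00572), and was 0.15 with upper-quartile scaling (adjusted p = 0.0208).

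Of 6 tested genes of other vasoactive peptide systems, 2 rose and 0 fell with either single drug. With the combination 2 rose and 3 fell, beside the shares over all genes given above. AGT (angiotensinogen) rose by 1.22, 2.90 and 2.54 with everolimus, SGI-1027 and the combination (edgeR adjusted p = 0.00164, 2.37e-08 and 1.31e-07) from a mean of 0.431 ± 0.185 CPM (SD, n = 3) with DMSO. BDKRB2, a bradykinin receptor, fell by 0.74 with the combination (edgeR adjusted p = 4.8e-05), and its values were 0.01 and 0.19 with everolimus and SGI-1027 (adjusted p = 0.927 and 0.166), the former between −0.05 and 0.07 with single libraries left out.

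Of 17 tested receptor coupling genes, 7 were upregulated and 6 downregulated with everolimus, and 5 and 8 with SGI-1027 and with the combination. Over all genes the shares were 27.2% and 29.2% with everolimus, 32% and 30.6% with SGI-1027, and 32.8% and 33.4% with the combination. PLCB4, a phospholipase C that acts after Gq-coupled receptors, rose by 0.94, 0.95 and 0.69 with everolimus, SGI-1027 and the combination, each past the threshold.

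Of 11 tested regulators known for these peptide genes, 4 rose and 5 fell with everolimus, and 4 rose and 3 fell with SGI-1027. With the combination 7 rose and 2 fell. The shares over all genes were 27.2% and 29.2% with everolimus, 32% and 30.6% with SGI-1027, and 32.8% and 33.4% with the combination. FOSL1 and FOS are subunits of AP-1. FOSL1 fell by 0.68 with everolimus and rose by 0.54 with the combination (edgeR adjusted p = 1.89e-05 and 0.000116), with −0.08 for SGI-1027 (adjusted p = 0.496), which ran from −0.26 without SGI-1027 replicate 3 (adjusted p = 0.00119) to 0.02 without DMSO replicate 1 (adjusted p = 0.895). FOS had log2 changes of −0.60, −1.53 and −1.84 with everolimus, SGI-1027 and the combination (edgeR adjusted p = 0.0253, 1.63e-05 and 2.12e-06), and the everolimus value missed the threshold when DMSO replicate 1 (adjusted p = 0.107) or everolimus replicate 2 or 3 (0.0618 and 0.0744) was left out. EPAS1 encodes HIF2α and was chosen after its values were seen, so it is given without p-values. Its log2 changes were −0.16, 0.59 and 0.77 with everolimus, SGI-1027 and the combination. In the same order they were 0.40, 0.77 and 1.17 for FOXO1, −0.46, −0.82 and −0.99 for GATA2, and 0.19, 0.33 and 0.30 for HIF1A.

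**Figure D5:**
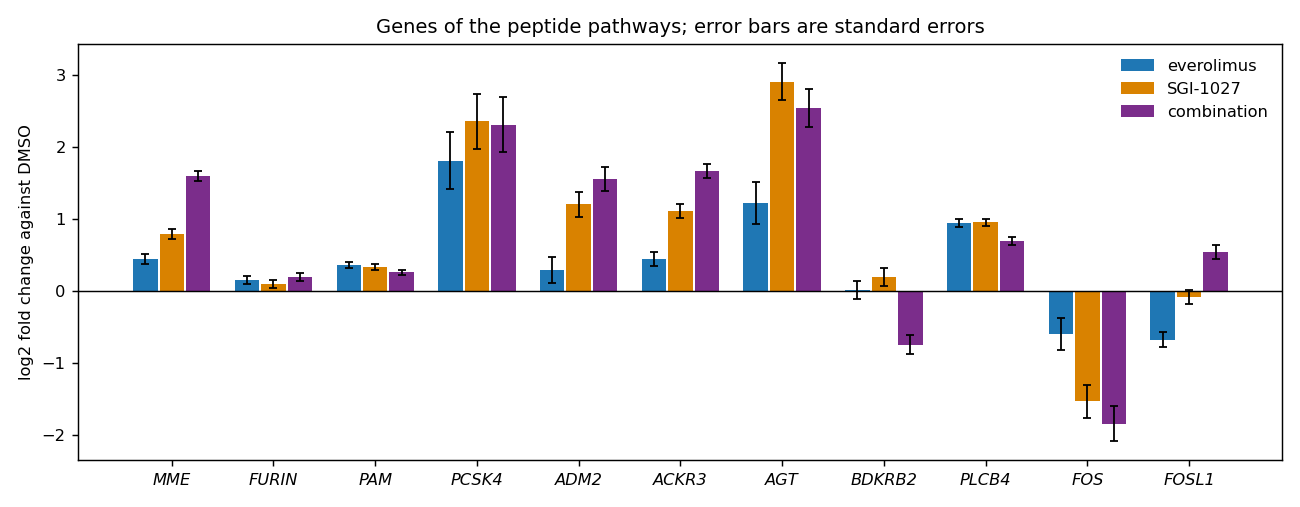
Log2 fold change against DMSO of named genes of the peptide pathways in the 3 treated groups, with bars for edgeR values and error bars for standard errors. MME, ACKR3 and ADM2 are highest with the combination, AGT and PCSK4 are higher with every drug from low levels, and FOSL1 lies below 0 with everolimus and above 0 with the combination. PCSK5, which fell with every treatment, is not shown.

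Markers were read to check the labelled cell line. All 7 renal tubule and renal carcinoma markers passed the filter, with a summed level of 8409 to 8783 CPM in the DMSO libraries and 9437 to 10119 CPM in the treated ones. VIM had the highest level of the list, with a mean of 2749 FPKM with DMSO and 3283 to 3413 FPKM in the treated groups, and CDH2 was likewise higher in each treated group (117 FPKM with DMSO, 145 to 172 FPKM treated). KRT8 was lower in each (617 FPKM with DMSO, 479 to 559 FPKM treated), and with everolimus PAX8 was at 80.1 FPKM against 101 FPKM with DMSO and KRT18 at 223 against 254 FPKM. Of 8 endothelial markers 4 passed, summing to 4.16 to 4.91 CPM with DMSO and 5.80 to 7.38 CPM in the treated groups, mostly from TIE1. Of 4 leukocyte markers 1 passed, with sums of 0.125 to 0.487 CPM over all libraries. Smooth muscle markers summed to 117 to 141 CPM with DMSO, 79.3 to 87.7 with everolimus, 54.2 to 60.5 under SGI-1027 and 58.8 to 61.2 in the combination group, almost all from SMTN, with MYH11, DES and LMOD1 near 0. The part of these levels in the results was not tested.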

How the data were processed

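RNA-seq libraries of 786-O cells in 4 groups of 3 were analysed. The authors deposited raw counts per gene and FPKM values. The FPKM values equal the count divided by library total and gene length, as checked for the 5 genes. Aligner, counter and annotation are not given in the sources used here, and the submitters' processing notes name the mouse builds GRCm38 and mm10, although the gene symbols are human. The sample records and the study's methods name different kits for extraction and libraries. No coordinates come from the files.

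Counts of all 12 libraries were fitted together with edgeR 4.0.16 in R 4.3.3 (TMM, filterByExpr, prior count 0.125, quasi-likelihood test), with calls at an adjusted p of 0.05 over 12841 genes. Log2 changes come from that fit, with SE from the F statistic. On simulated counts, 200 of 200 changed genes were recovered with 7 false calls among 12735 genes tested. The genes, lists and tests were chosen with earlier results of these data known, so the 5 genes received no p-values. From the lists, the text names receptors, ligands and enzymes by role, the 3 largest called changes per treatment and the 5 largest interactions among genes averaging 50 counts or more, and the 2 genes nearest to each of the 5. EPAS1, FOXO1, GATA2, HIF1A, KEL and PCSK5 are named outside these rules and were not followed singly through the alternatives below. Alternatives were upper-quartile scaling, DESeq2 1.42.0, no filter or at least 10 counts in every library, fits of only the groups compared, a replicate block, limma 3.58.1 on log2(FPKM + 1) and log2(FPKM + 0.1), the cut-off of the study, and leaving out each library. Same-numbered libraries did not deviate together (18 pairs, correlation −0.176 to 0.0358), so replicates were not paired. Intervals and floors cover counting error only.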

Additional observations from a re-analysis of the deposited data

Results flagged for a closer look

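Differences between the response to a drug alone and on top of the other drug are listed here because the effect differed between the 2 settings. For list genes the difference was tested by edgeR's interaction term, adjusted over all genes. It was 0.36 for MME (adjusted p = 0.00375), −0.43 for PAM (3.12e-06), −1.86 for PCSK4 (0.00559), −1.59 for AGT (0.00147), −0.95 for BDKRB2 (0.000225), −1.20 for PLCB4 (6.9e-10) and 1.30 for FOSL1 (1.05e-06), on the log2 scale.

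EDN1, APLN and ADM moved in opposite directions in every library when everolimus was given with and without SGI-1027, and EDN1 and APLN also when SGI-1027 was given with and without everolimus. The interactions of EDN1, APLN and ADM were −2.20, 2.27 and 0.43. This difference was not tested, since these genes were chosen with their responses known. All interactions given here use the everolimus group, whose dose is uncertain.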

How the results depend on the processing

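Among the genes followed singly, no log2 change called in the report turned direction under any alternative run. With upper-quartile scaling, ADM was at −0.17 with everolimus and 0.40 with the combination against DMSO with an interaction of 0.35, and ECE1 at 0.11 with everolimus and 0.18 with the combination. On log2(FPKM + 1), where the added 1 shrinks changes of low genes, EDN1 was at 1.42 with everolimus, 1.56 under SGI-1027 and 1.20 in the combination group against DMSO, with an interaction of −1.78. EDN2 was there at −3.51 for the combination against DMSO, −2.25 against everolimus and −1.94 against SGI-1027, with an interaction of −0.68. APLN was at −1.29 with everolimus, −0.91 under SGI-1027 and −0.82 in the combination group against DMSO and at 0.47 for the combination against everolimus, with an interaction of 1.38.

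With the cut-off of the study, 4 of the 47 tested list genes were higher and 0 lower with everolimus, 6 and 1 with SGI-1027, and 8 and 4 with the combination. Over all tested genes, 4.79%, 7.33% and 9.96% met it in either direction. The numbers were 5 and 1 for the combination against everolimus, 0 and 1 against SGI-1027, and 1 and 5 for the interaction. No share over all genes is given for these, so nothing is read from them. Leaving out single libraries, the ECE1 interaction ran from −0.12 to 0.010 (the latter without SGI-1027 replicate 3), and list genes higher in the combination than with SGI-1027 numbered 4 (without SGI-1027 replicate 2) to 8, from 7 in the full fit.

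With the replicate block, which same-numbered libraries do not call for, list genes higher with everolimus numbered 18, from 19. No call given in the report for a list gene followed singly was lost. The interaction of PCSK4 was not called on log2(FPKM + 1), at −0.38 (adjusted p = 0.0645). The cause of these shifts was not tested where no construction is named. At 29 to 40 reads, the combination level of EDN2 is the least precise of the values given for the 5 genes.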
